A study of Brassica napus with 6 samples.

Results

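The miRNA families miR6028, miR6029, miR6030, miR6033 and miR9553, which were named from Brassica crops, were followed in young pistils and siliques (seed pods) of rapeseed, Brassica napus. Each was listed with 1 name (bna-miR6028, bna-miR6029, bna-miR6030, bna-miR6033 and bra-miR9553-5p). They were chosen as every known miRNA whose family number ran from miR6028 to miR6036 or was miR9553, and they made up 5 of the 69 known miRNAs listed. The rule used names and no measured value, although earlier results of these data were known when the members were chosen. The names alone, not these data, carry the view that the families are restricted to Brassica. The tissue came from a long-silique line (LS) and a short-silique line (SS), both backcross progeny of the cross of lines 8008 and 4942, with no treatment stated. Each line had 2 small RNA libraries and 1 degradome library, made from tissue of 0 to 7 days after pollination, with about 12 plants sampled at each stage. Stages and plants were therefore pooled within a library, and each group stands for a progeny population of 1 cross. The tables hold no mRNA levels, so the tissue was not checked against marker genes.

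A miRNA guides an ARGONAUTE protein to mRNAs that pair with it, and in plants the mRNA is usually cut opposite bases 10 and 11 of the miRNA. The old families shared by most land or flowering plants act mainly on transcription factor mRNAs, whereas families restricted to a few related species are, as a rule, present at lower levels and have fewer known targets. Plant miRNAs of 22 bases that begin with U, as bna-miR6030 does, can also start the production of secondary small RNAs from a cut mRNA, which is known from Arabidopsis. A degradome library reads cut mRNAs from the 5′ end left by the cut and so lists candidate cut sites.

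Among the 5 miRNAs, bna-miR6030 was the 1 with entries in the degradome tables, and its sequence and sites are shown because the target results rest on them. All are written 5′ to 3′ in DNA letters, as deposited for the miRNA and reversed from the deposited 3′ to 5′ line for the mRNA. In the miRNA the capitals mark the seed, bases 2 to 8. In the sites the capitals mark bases that do not form a Watson-Crick pair with the miRNA.
bna-miR6030: tCCACCCAtaccatacagaccc
BnaAnng03870D, BnaC08g21550D and BnaCnng64090D: gggtTtgtatggtatgggtgga
BnaC08g15510D and BnaC08g41710D: gggtctCtatggtatgggtgga
BnaA01g35670D: gggtTtgtatggtatgggGgga
BnaC08g48650D: AggtTtgtatggtatgggtgga
BnaC08g41330D: AggtctgtatggtatgggtggG
BnaCnng50410D: ggAttAtaCggtatgggtgga
The sites in 9 mRNAs thus had 6 different sequences, and across the 8 sites without a gap 17 of the 22 bases were the same. Of the 145 miRNAs with a sequence in the degradome tables, 0 others had the seed of bna-miR6030.

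The library totals lay between 6046506 and 6739286 reads. Known miRNAs took 4.82% of the total in both LS libraries, 6.51% in SS library 1 and 6.50% in SS library 2. A chi-square test of counts given the totals found no difference between LS library 1 and LS library 2 (0.904 per degree of freedom, p = 0.675). The pair differed by no more than sampling noise and was counted as 1 sample for the levels, while the main test kept the LS libraries separate. LS levels are therefore a mean with the 95% Poisson interval of the summed count, and SS levels are mean ± SD (n = 2). The chi-square test of SS library 1 against SS library 2 gave 1.61 per degree of freedom over the known miRNAs (p = 0.00269) and 0.611 over the members studied (p = 0.691). The p-values of the line comparison by edgeR and DESeq2 rest on how these libraries vary among themselves, possibly for technical reasons only. The chi-square p-values and the intervals cover counting error only.

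bra-miR9553-5p was the most abundant of the 5, followed by bna-miR6030, bna-miR6029, bna-miR6028 and bna-miR6033, in the same order in every library. bra-miR9553-5p, named as the 5′ arm of its hairpin, had 753 and 821 reads in LS and 1083 and 1168 reads in SS. That was 117 and 122 RPM (reads per 1000000 library reads) in LS, and 179 and 182 RPM in SS. Its mean level was 120 RPM in LS (interval 114 to 126) and 181 ± 2.34 RPM in SS, and both SS libraries lay above both LS libraries.

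bna-miR6030, the member with listed targets, had 493 and 523 reads in LS and 619 and 626 in SS. Its level was 76.9 and 77.6 RPM in LS and 102 and 97.8 RPM in SS. The mean was 77.3 RPM in LS (72.6 to 82.2) and 100.1 ± 3.26 RPM in SS, and on this scale the lines did not overlap. bna-miR6029 had 376 and 388 reads in LS and 425 and 476 in SS. Its mean level was 58.1 RPM in LS (54.1 to 62.4) and 72.3 ± 2.86 RPM in SS, again without overlap between the lines on this scale.

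bna-miR6028 had 107 and 115 reads in LS and 123 and 122 in SS. The mean was 16.9 RPM in LS (14.7 to 19.3) and 19.7 ± 0.911 RPM in SS, and although the libraries did not overlap, the LS interval and the counting interval of SS (17.3 to 22.3) did. bna-miR6033, the least abundant, had 25 and 33 reads in LS and 43 and 57 in SS. Its mean was 4.40 RPM in LS (3.35 to 5.70) and 8.01 ± 1.27 RPM in SS, so its values rest on few reads. The lowest library of each miRNA exceeded the highest library of the next in the order. The narrowest gap was between bna-miR6030 (lowest library 76.9 RPM) and bna-miR6029 (highest library 74.3 RPM).

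**Figure D1:**
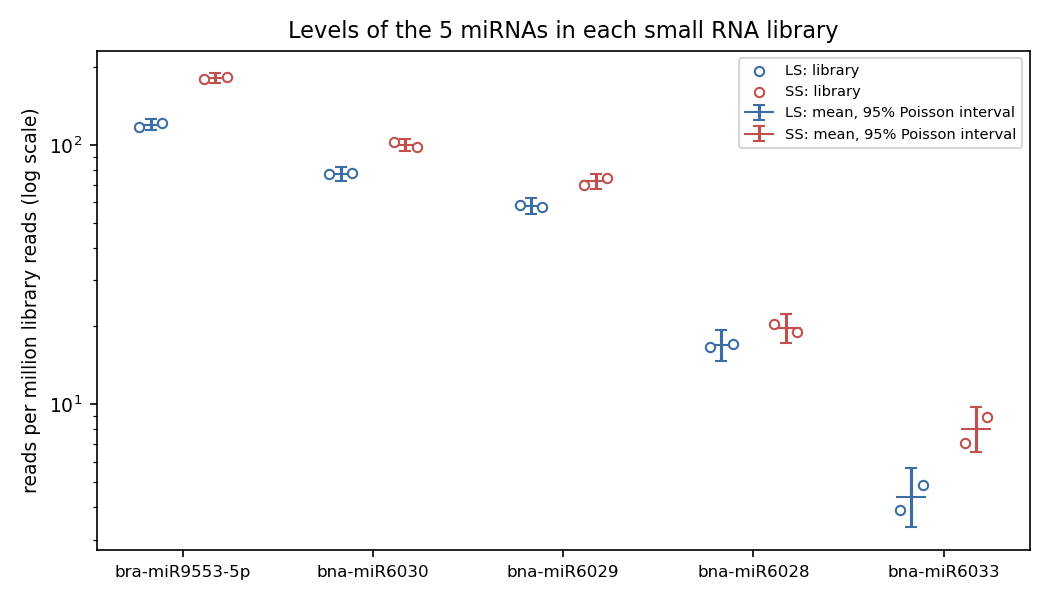
Reads per 1000000 library reads (log scale) of the 5 miRNAs in each small RNA library. Open circles are libraries, and bars with caps are the line mean with its 95% Poisson interval. bra-miR9553-5p lies near 120 RPM in LS and 181 RPM in SS, while bna-miR6033 lies at 4.40 and 8.01 RPM.

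Compared with conserved families, the 5 miRNAs were of middling level. bra-miR9553-5p ranked 16 of 69 by its mean over the 4 libraries (150 RPM), above 42 of the 54 miRNAs from conserved families. bna-miR6030 ranked 18 (above 41), bna-miR6029 ranked 21 (above 39), bna-miR6028 ranked 29 (above 33) and bna-miR6033 ranked 37 (above 26). The median over the 5 was 65.2 RPM, against 8.51 RPM over the 54 conserved names and 5.49 RPM over 9 names from other families limited to Brassicaceae.

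Over all names, without a minimum of reads, summing the names of a family closed the gap for the conserved families only. The 8 other families limited to Brassicaceae had a median of 4.28 RPM and ranged from 0.200 to 7177 RPM. The 25 conserved families had a median of 67.5 RPM and ranged from 0.457 to 16244 RPM, while the 5 families studied, each with 1 name, ranged from 6.20 to 150 RPM. miR9553 ranked 13 of 39 families, miR6030 ranked 15, miR6029 ranked 18, miR6028 ranked 22 and miR6033 ranked 27. Read numbers of different miRNAs also depend on how well each is ligated and amplified, so these orders describe the libraries.

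The neighbours in level, mostly from conserved families, overlapped with the members in their range over libraries. bna-miR6030 (88.7 RPM over all libraries) stood beside ath-miR159a (88.4 RPM), which acts on GAMYB-like mRNAs, but ath-miR159a ranged from 42.8 to 131 RPM and was higher in LS and lower in SS than bna-miR6030. bra-miR9553-5p lay between bra-miR5654a (range 119 to 201 RPM) and bna-miR167d (116 RPM, range 91.3 to 141 RPM), from a family that acts on auxin response factors. Its range over libraries, 117 to 182 RPM, overlapped with both, although the order within each library was the same. bna-miR6028 fell between ghr-miR827a (21.7 RPM, range 12.9 to 31.4) and mtr-miR171b (16.4 RPM, range 14.7 to 19.5). It was above mtr-miR171b in every library, whereas ghr-miR827a was below it in LS and above it in SS. bna-miR6033 fell between ath-miR160a-5p (7.48 RPM, range 1.72 to 12.8) and bna-miR161 (5.49 RPM, range 4.60 to 6.09), with no fixed order over the libraries. For bna-miR6029 the neighbours were ath-miR160a-3p (78.8 RPM) and ath-miR172c (54.7 RPM), in the same order in every library.

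**Figure D2:**
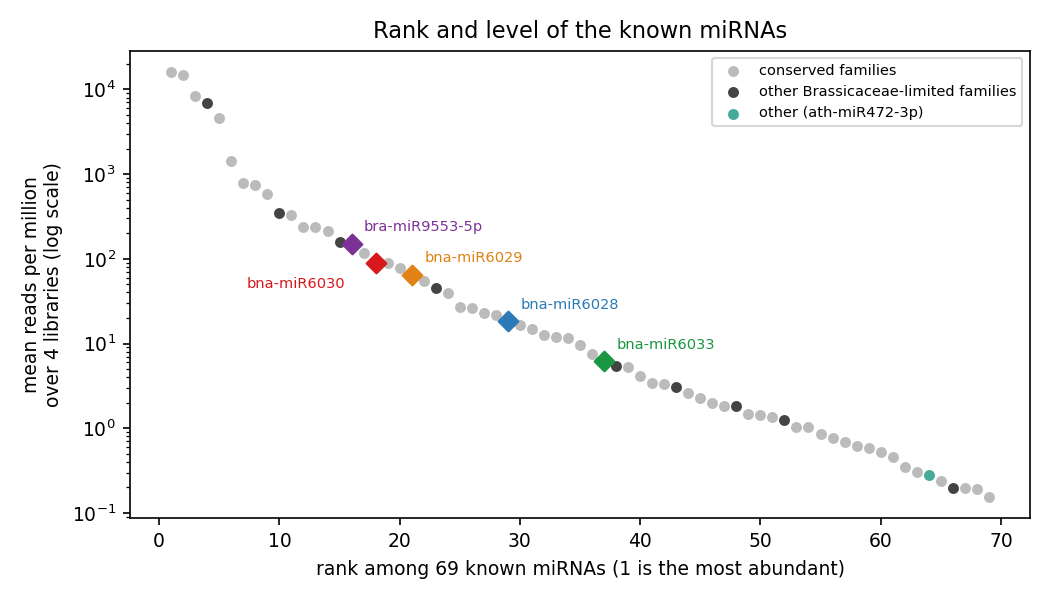
Rank (x axis) and mean RPM over 4 libraries (log scale, y axis) of the 69 known miRNAs. Diamonds are the 5 miRNAs studied, at ranks 16, 18, 21, 29 and 37, and circles are the other known miRNAs by kind of family.

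As a share of known miRNA reads, the 5 miRNAs together hardly differed between the libraries. They took 0.567% in LS library 1 (Wilson 95% interval 0.541% to 0.594%) and 0.579% in LS library 2 (0.553% to 0.605%). In SS library 1 they took 0.583% (0.559% to 0.607%) and in SS library 2 0.589% (0.566% to 0.612%). All 4 intervals overlapped. As a share of all library reads they took 0.0274% and 0.0279% in LS and 0.0379% and 0.0382% in SS, beside the larger share of known miRNAs in SS given above. In bulk tissue, fewer cells of a type and less RNA per cell cannot be told apart.

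The line comparison asked whether these miRNAs differ between young siliques of LS and SS. It used edgeR's quasi-likelihood test over the 52 known miRNAs with 10 or more reads in at least 2 libraries, which all 5 passed, with TMM factors and a Benjamini-Hochberg adjusted p of 0.05 as the threshold. bra-miR9553-5p was higher in SS and the other 4 did not pass. That is 1 of 5 called higher, where 34.6% of the tested miRNAs were called higher and 51.9% were called in either direction. Of the 40 tested conserved miRNAs, 23 passed, 15 of them higher.

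bra-miR9553-5p rose by 0.30 ± 0.04 on the log2 scale (SE, edgeR adjusted p = 8.17e-10). In RPM by library totals both SS libraries lay above both LS libraries, but that held for all of the 5. The rise was 0.29 ± 0.05 with the LS libraries summed into 1 sample (edgeR adjusted p = 7.48e-06), where 44.2% of the tested miRNAs were called and 30.8% were called higher. With DESeq2 it was 0.19 ± 0.08 and did not pass (DESeq2 adjusted p = 0.0555). DESeq2 with its own size factors called 0 of the 5, with 1 at an unadjusted p under 0.05, against 32.7% of all tested miRNAs called.

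The values of the other members were 0.57 ± 0.26 for bna-miR6033 (edgeR adjusted p = 0.059), 0.08 ± 0.05 for bna-miR6030 (0.321), 0.02 ± 0.06 for bna-miR6029 (0.841) and -0.08 ± 0.13 for bna-miR6028 (0.689). bna-miR6033 had the largest difference of the 5 and the largest error. Its call depended on single libraries. Without SS library 1 it was 0.75 and passed (edgeR adjusted p = 0.0175), and without SS library 2 it was 0.39 and did not (0.308). Over its alternatives the adjusted p of bna-miR6033 ran from 0.00239 to 0.613.

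The choice of scale decided the call for several members. Scaled to the authors' library totals, 4 of the 5 were called higher by edgeR, where 63.5% of all tested miRNAs were called higher and 5.77% lower. The log2 fold changes were then 0.86 ± 0.26 for bna-miR6033, 0.59 ± 0.04 for bra-miR9553-5p, 0.37 ± 0.05 for bna-miR6030 and 0.32 ± 0.06 for bna-miR6029. bna-miR6028 stood at 0.22 ± 0.14 and did not pass (edgeR adjusted p = 0.138). With the LS libraries summed into 1 sample and the same totals, bna-miR6033 was again at 0.86, with a larger error (± 0.40). Among all 52 tested miRNAs the split was 18 higher and 9 lower with TMM, 33 higher and 3 lower with the library totals, 14 higher and 11 lower with RLE factors, and 15 higher and 13 lower with no factor.

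A change of scale moves all miRNAs by nearly the same amount, so differences were also taken from the median of all tested miRNAs in the same fit. That median was 0.12 with TMM, 0.41 with the authors' library totals, 0.01 with RLE factors and -0.02 with no factor. With TMM, bna-miR6033 lay 0.45 above the median, from 0.26 without SS library 2 to 0.69 without LS library 2. bra-miR9553-5p lay 0.18 above it, from 0.14 without LS library 1 to 0.27 without LS library 2. The difference from the median was -0.19 for bna-miR6028, from -0.22 without LS library 1 to -0.11 without LS library 2. For bna-miR6029 it was -0.10, from -0.15 without SS library 2 to -0.012 without SS library 1. For bna-miR6030 it was -0.04, from -0.06 without LS library 1 to 0.03 without LS library 2, so its side of the median depended on 1 library. By its log2 fold change with TMM, bna-miR6033 ranked 11 of 52 from the top and bra-miR9553-5p ranked 20, whereas bna-miR6030, bna-miR6029 and bna-miR6028 ranked 30, 32 and 38. With TMM the 5 had a median of 0.08, against 0.12 over all tested.

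**Figure D3:**
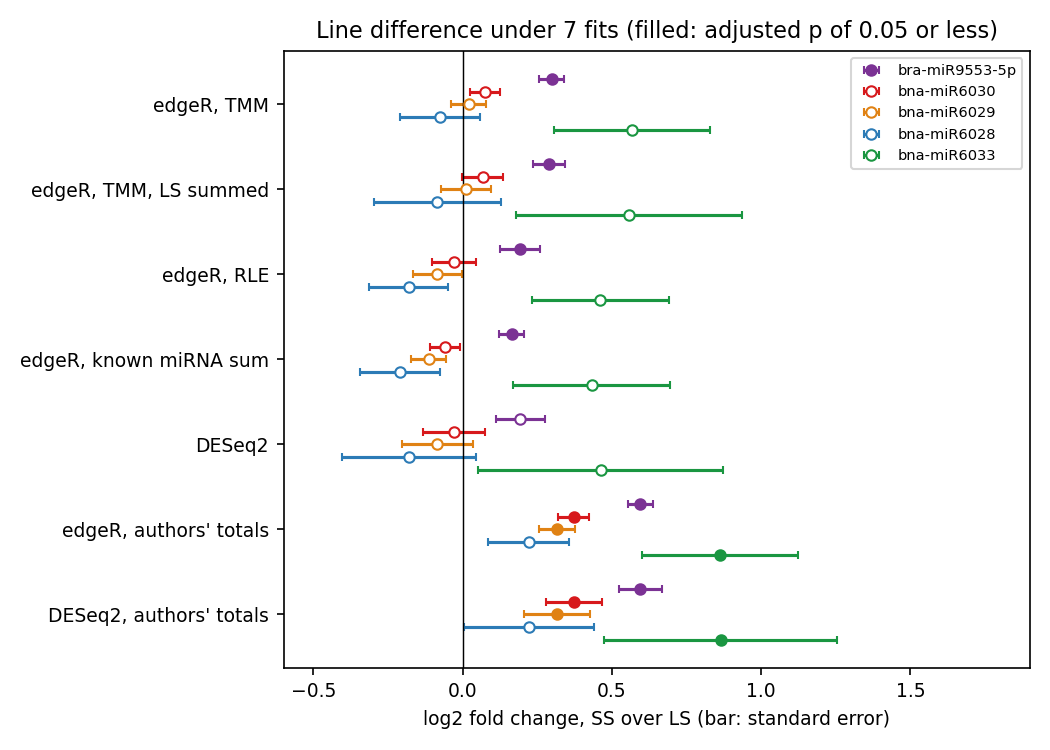
Log2 fold change, SS over LS, of the 5 miRNAs (colours) under 7 fits (rows), with bars for the standard error and filled symbols for an adjusted p of 0.05 or less; the row of the known miRNA sum is the fit with no factor. A change of scale moves all 5 by nearly the same amount, and with the authors' library totals bna-miR6030 moves from 0.08 to 0.37.

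Ratios within a library do not depend on any scale. bra-miR9553-5p had 1.53 and 1.57 reads per read of bna-miR6030 in LS and 1.75 and 1.87 in SS, so the lines did not overlap. In the same way bna-miR6033 had 0.0507 and 0.0631 reads per read of bna-miR6030 in LS and 0.0695 and 0.0911 in SS. bna-miR6029 had 0.763 and 0.742 in LS and 0.687 and 0.760 in SS, which overlapped. bna-miR6028 had 0.217 and 0.220 in LS and 0.199 and 0.195 in SS. With 2 libraries against 2, an exact two-sided permutation test cannot go below p = 0.333, which is what it gave for the 3 ratios without overlap.

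Within the reads of the 5, bra-miR9553-5p took 42.9% and 43.7% in LS and 47.2% and 47.7% in SS. The share of bna-miR6030 was 28.1% and 27.8% in LS against 27.0% and 25.6% in SS. bna-miR6029 took between 18.5% and 21.4%, bna-miR6028 between 4.98% and 6.12%, and bna-miR6033 between 1.43% and 2.33%. The Wilson 95% intervals of bra-miR9553-5p in LS library 1 (40.6% to 45.3%) and SS library 2 (45.7% to 49.7%) did not overlap, but those of LS library 2 (41.4% to 45.9%) and SS library 1 (45.2% to 49.3%) did.

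The authors' deposited table compares 1 library with 1 library by library totals. It marked 14 of the 69 listed miRNAs as changed in each pair, and none of the 5 was among them. For bra-miR9553-5p the authors' deposited table gave a log2 fold change of 0.61 with p = 3.07e-19 in the pair numbered 1 and 0.58 with p = 3.98e-19 in the pair numbered 2. In the authors' deposited table bna-miR6033 stood at 0.87 and 0.86 (p = 0.0156 and 0.00557). The 14 miRNAs marked in each pair had a log2 fold change of at least 1.02 in size in pair 1 and at least 1.13 in pair 2, above the largest value of the 5 families in the authors' deposited table.

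The closest patterns over the 4 libraries were found as the smallest distance between log2(RPM + 0.5) values after centring each miRNA on its own mean. bra-miR9553-5p was closest to bna-miR167d (distance 0.0595) and smo-miR156c (0.0678), from the family that acts on SPL transcription factors. bna-miR6030 was closest to ptc-miR167f-5p (0.0858) and ath-miR167a-5p (0.0874), bna-miR6029 to ath-miR172a (0.0482) and ath-miR158a-3p (0.0678), and bna-miR6028 to ath-miR160a-3p (0.0144) and ath-miR165a-3p (0.0743). bna-miR6033 had no partner as near, with bra-miR5654a at 0.256 and ath-miR391-5p at 0.305. It had 25 to 57 reads per library, and the part of counting noise in its distances was not tested. The median distance to the 47 other tested miRNAs ran from 0.325 for bna-miR6030 to 0.647 for bna-miR6033. With 4 libraries in 2 lines such a distance holds the line difference and the noise within a line.

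The degradome tables were read to see which mRNAs carry cut sites assigned to the 5 miRNAs. Only bna-miR6030 was listed, with 1 entry in LS and 9 entries in SS, each on another mRNA. bra-miR9553-5p, bna-miR6029, bna-miR6028 and bna-miR6033 had 0 entries in both tables, although bra-miR9553-5p had the higher read level in every small RNA library. Each line had 1 degradome library, so there is no replicate check, and the tables give no read numbers at a site, so the depth behind an entry is unknown.

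The LS and SS tables cannot be set against each other over their whole length, since targets are sorted by identifier and the LS table breaks off within an entry. Within the stretch of targets that the LS table covers, bna-miR6030 had 1 entry in each line, on the same mRNA and at the same position. The other 8 SS targets come after that point and were not comparable. In that range the SS table held 128 of its 382 entries of known miRNAs, and the LS table held 95.

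The shared target was BnaA01g35670D, at position 593 of the mRNA, with an alignment score of 1.5 in both lines. The score adds a penalty for each imperfect base. For all 10 entries of bna-miR6030 it equalled 0.5 for each G-U pair plus 1 for each mismatch or gap. Over all complete entries, of known and predicted miRNAs, this sum equalled the score in 713 of 738. The authors' deposited table gave the site category 0 with p listed as 0 in LS, and category 1 with p listed as 0.002 in SS. Lower categories by convention mean that more of the degradome reads of an mRNA start at the site, but the definition used here is not given in the sources used here. It was the 1 site with a mismatch in the seed, at base 4 counted from the 5′ end of the miRNA.

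The closest pairing was found for BnaAnng03870D (position 536), BnaC08g21550D (position 599) and BnaCnng64090D (position 599), each with a score of 0.5 and category 0. Their sites had the same 22 bases, with a single G-U pair at base 18. BnaC08g15510D (position 215) and BnaC08g41710D (position 572) also shared a site, with a single mismatch at base 16, a score of 1 and category 0. BnaC08g41330D (position 599) had a G-U pair at base 1 and a mismatch at base 22, with a score of 1.5 and category 0.

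The remaining pair of targets was listed in category 1, as was BnaA01g35670D in SS. BnaC08g48650D (position 503) had a score of 1.5 and BnaCnng50410D (position 113) a score of 4. The site in BnaCnng50410D had 3 mismatches and 1 unpaired miRNA base, all between bases 13 and 20. A degradome read is short, and the files do not show how reads shared by mRNAs with the same site were assigned. Sites of different sequence also had stretches of bases in common. How far shared reads entered into any of the entries was not tested.

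Bases 5 to 12 of bna-miR6030, which include bases 10 and 11, were paired in all 9 SS sites. The whole seed was paired in 8 of them. No SS entry of a known miRNA had a score above 4.5, so close pairing may be a condition of being listed. The stretch of bases 5 to 12 was also read from these same sites. Base 18 was the one most often imperfect, with a G-U pair in 5 sites and no partner in 1. Base 16 was mismatched in 3 sites and base 22 in 2. The position in the mRNA was between 500 and 600 in 7 of the 9 targets, and it was 599 in 3 of them.

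**Figure D4:**
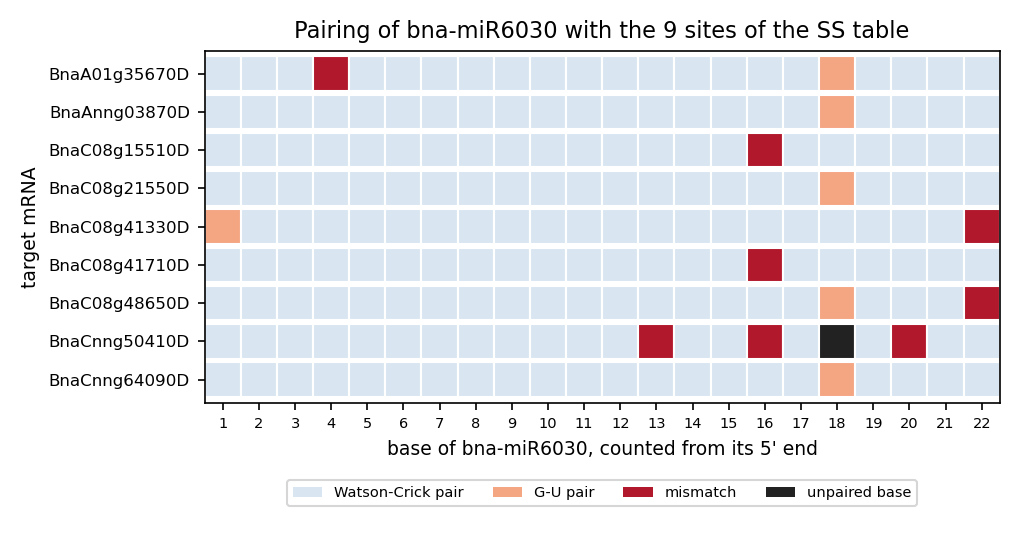
Pairing of each base of bna-miR6030 (x axis, counted from the 5′ end) with the 9 target mRNAs of the SS degradome table (rows). Pale cells are Watson-Crick pairs, orange cells G-U pairs, red cells mismatches and the black cell an unpaired base, and bases 5 to 12 are pale in every row.

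Set beside other known miRNAs, the sites of bna-miR6030 had a low score. Their median was 1 (range 0.5 to 4), against 2 over the 373 SS entries of other known miRNAs. Among 16 families with at least 5 SS entries, miR6030 was level with miR400 behind miR171, a family that acts on GRAS transcription factors, whose median was 0.5. Category 0 took 6 of 9 entries of bna-miR6030 (66.7%) and 70.0% of those of the others. That pooled share leans on miR156, which had 160 of the 373 entries, 50% of them in category 0. Among the 16 families the share ran from 28.6% for miR400 to 100%, and most of the other families lay above miR6030. These are counts in 1 library without a test.

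No other miRNA, known or predicted, was listed on any of the 9 target mRNAs. By the chromosome in their identifiers, 7 of the 9 belonged to the C subgenome and 2 to the A subgenome, and 5 were on chromosome C08. Of the 242 SS targets of the other known miRNAs, 19 were on C08 (7.85%) and 52.5% were on the C subgenome. Targets that share a site may be related genes, so they are not independent. The gene table at hand held 0 of these identifiers, so the mRNAs carry no gene names.

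Of the 5 families, 1 had SS entries (miR6030, with 9 target mRNAs). Of the 25 conserved families 16 had entries, with a median of 3 targets over the 25 and at most 88, and of 8 other families limited to Brassicaceae 3 had entries. miR159 and miR160, next to miR6030 in summed level at 88.4 and 95.8 RPM, had 11 and 6 targets. The miR160 sum mixes the arms of the hairpin, with ath-miR160a-3p at 78.8 RPM and ath-miR160a-5p at 7.48 RPM. Targets were counted by family and not by arm, so miR160 is not matched in level to bna-miR6030 as a single miRNA. High level did not go with entries in every family, since miR167 and miR158 (15136 and 7177 RPM) had 0 SS entries, as did miR9553.

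**Figure D5:**
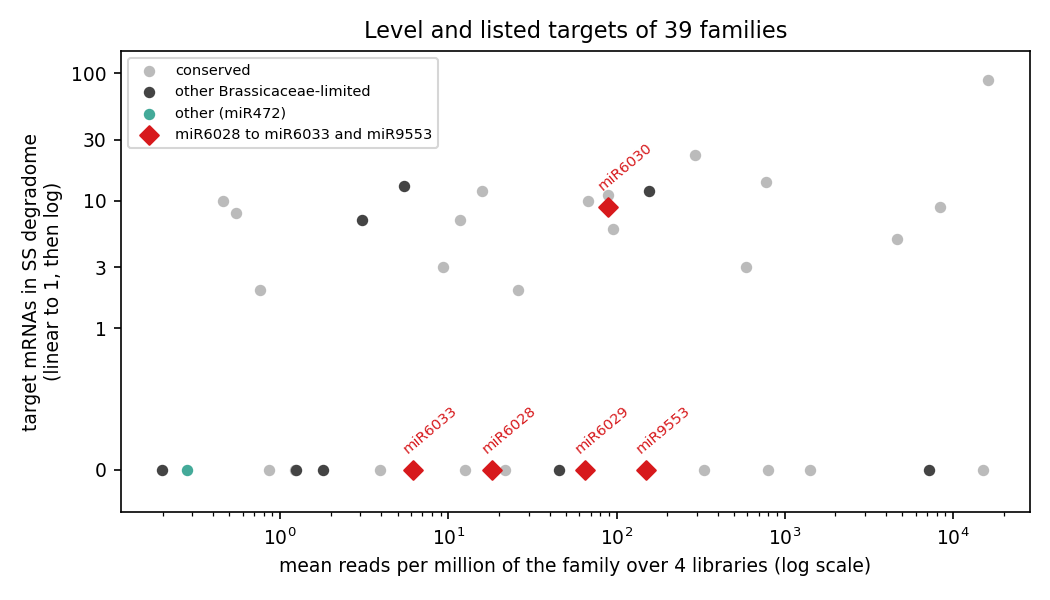
Mean RPM of each of 39 families over 4 small RNA libraries (log scale, x axis) and number of target mRNAs in the SS degradome table (y axis, linear to 1 and then log). Diamonds are the 5 families studied, of which miR6030 has 9 targets and the others 0.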

How the data were processed

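Small RNAs of 18 to 30 nt from 10 µg of total RNA, and degradome libraries from about 200 µg, were sequenced, per the labels' protocols. The deposited tables of known miRNAs hold read counts and the library total, per the file headers. The deposited RPM values equalled the count divided by that total times 1000000 in all 276 values (tolerance 0.0001). The log2 fold change and p-value in the authors' tables compare 1 library with 1 library, per the file headers. The aligner, miRNA database, genome build, target finder and p-value test are not named in the labels or file headers used here. Table columns were assigned by their names, since the labels' descriptions of some samples name the table of the other pair.

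The main test was edgeR 4.0.16 in R 4.3.3 (quasi-likelihood, TMM factors, two-sided) on 52 miRNAs that reached 10 counts in 2 or more libraries. It kept the LS libraries as separate samples, so its p-values may be too small. SE is the fold change divided by the square root of F. Alternatives were DESeq2 1.42.0, limma-voom (limma 3.58.1), RLE factors, scaling to library totals or to none, a filter of 50 counts or none, the replicate number as a block, LS summed, and each library left out. Summed LS with library totals, DESeq2 with library totals, and a crossed block were added after seeing the data. Pairing was recomputed from the deposited sequences. Named were all members, their nearest neighbours in level and the 2 closest patterns. Some families were chosen after their values were seen (miR156, miR158, miR159, miR160, miR167, miR171 and miR400 among the targets). Members and lists were chosen with earlier results of these data known. Tables of predicted miRNAs were not used here.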

Additional observations from a re-analysis of the deposited data

How the results depend on the processing

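The call of bra-miR9553-5p held in 14 of 15 alternatives and ended with DESeq2 (0.19). Its log2 fold change ran from 0.27 to 0.35 when 1 library was left out. With the authors' library totals bna-miR6029 (0.32), bna-miR6030 (0.37) and bna-miR6033 (0.86) passed and bna-miR6028 turned to 0.22. Chosen after the data were seen, the same totals with LS summed gave 0.32 for bna-miR6029, 0.37 for bna-miR6030, 0.22 for bna-miR6028 and 0.86 for bna-miR6033, which did not pass there (edgeR adjusted p = 0.0514). With DESeq2 they gave 0.32, 0.37 and 0.22, and 0.86 for bna-miR6033, which passed. bna-miR6029 and bna-miR6030 turned below 0, without a call, with RLE factors (-0.085 and -0.029), no factor (-0.11 and -0.059), 50 counts in 2 libraries (-0.070 and -0.015) and DESeq2 (-0.085 and -0.029). When 1 library was left out, bna-miR6029 ran from -0.024 to 0.093 and bna-miR6033 from 0.39 to 0.75. bna-miR6033 passed with no filter (0.62) and limma-voom (0.56), and at 50 counts in 2 libraries it was not tested. The causes were not tested. In all, 27 miRNAs passed, and 17 with DESeq2.

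Per 1000000 known miRNA reads, LS and SS levels were 350 and 303 for bna-miR6028, 1205 and 1112 for bna-miR6029, 1602 and 1539 for bna-miR6030, 91.2 and 123 for bna-miR6033, and 2482 and 2780 for bra-miR9553-5p. TMM-scaled RPM in LS and SS was 18.7 and 17.8 for bna-miR6028, the other order of lines than with library totals. It was 64.5 and 65.2 for bna-miR6029, 85.7 and 90.2 for bna-miR6030, 4.88 and 7.22 for bna-miR6033, and 133 and 163 for bra-miR9553-5p. The SS degradome count of 9 became 1 up to the last LS target.

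With the replicate number as a block, 23 miRNAs passed and no call among the 5 changed (bra-miR9553-5p 0.30). Deviations of same-numbered libraries had a correlation of -0.26 over 52 miRNAs. With 2 libraries per line the crossed numbers necessarily give the opposite value (0.26), so this correlation cannot decide a pairing. The main test used none. With the numbers crossed, chosen after the data were seen, 25 passed, and bna-miR6033 joined bra-miR9553-5p for 2 of the 5. bna-miR6033, with 25 to 57 reads per library, is the value most limited by depth.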
